A study of Homo sapiens with 16 samples.

Results

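Endoplasmic reticulum (ER) chaperones, folding enzymes, degradation factors, translocon subunits and stress sensors were followed as a group of 31 named genes, out of 20802 gene targets counted in each library. The members were listed by symbol, as genes of ER protein folding and of the ATF6 and XBP1 stress pathways. The list was meant to leave out the ATF4 targets of the PERK pathway, but its member HERPUD1 is known as a target of ATF4 too. All 31 symbols matched a target and all 31 passed the filter on low counts. RNA came from HEK293, a human embryonic kidney cell line, in 16 libraries that form 8 groups of 2 biological replicates. The series asks how the geometry at which receptors hold their Janus kinases (JAK) affects gene expression. Cells carried either wild-type receptors or geometry-optimized receptors, called wild-type and optimized cells here. Each kind was left untreated or exposed to interferon omega (IFNw, a type I interferon), interferon lambda 3 (IFNL3, a type III interferon) or H11, which the labels describe as a high-affinity form of IFNL3. The ligand concentration was 100 nM and the exposure 15 min in every treated group, and all libraries carry a time of 24 hr. No mock-treated group was analysed here, and the labels do not say how the receptors were introduced or whether a receptor type is 1 clone.

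The ER folds and matures secreted and membrane proteins. BiP (the product of HSPA5) and GRP94 (HSP90B1) bind unfolded chains, calreticulin and calnexin bind chains that carry sugars, and protein disulfide isomerases form and shuffle disulfide bonds. When unfolded chains accumulate, the sensors ATF6, IRE1 (ERN1) and PERK (EIF2AK3) are released from BiP. ATF6 is then cut in the Golgi by the site-1 protease (MBTPS1) and enters the nucleus, IRE1 splices the XBP1 message into the form that encodes the active factor, and PERK slows translation and raises ATF4. Cleaved ATF6 and spliced XBP1 turn on chaperone and ER-associated degradation (ERAD) genes through ER stress response elements in their promoters. These sensors act through cleavage, splicing and phosphorylation, so messenger levels do not measure their activity. The sources used here do not give the position of the XBP1 target, so spliced and unspliced XBP1 were not told apart.

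The promoters of several members carry the elements through which ATF6 and XBP1 act, and 8 are shown here because the responses of their genes, described below, went in opposite directions. The motifs searched on both strands were the ER stress response element (ERSE, which is CCAAT and CCACG with 9 bases between), the related ERSE-II (ATTGG and CCACG with 1 base between) and the core of the unfolded protein response element (UPRE, TGACGTGG). Sequences are from RefSeq on GRCh38.p14, each read 5′ to 3′ on the gene's strand, with the match in capitals and 20 bases on either side. In CALR, CRELD2, HYOU1 and SDF2L1 the match is to the reverse complement.
HSPA5: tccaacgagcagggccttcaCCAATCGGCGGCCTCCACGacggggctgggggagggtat
HSP90B1: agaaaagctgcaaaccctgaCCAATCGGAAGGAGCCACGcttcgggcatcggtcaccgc
CALR: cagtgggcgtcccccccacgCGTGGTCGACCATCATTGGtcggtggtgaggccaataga
CRELD2: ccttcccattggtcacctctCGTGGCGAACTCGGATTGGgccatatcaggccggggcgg
XBP1: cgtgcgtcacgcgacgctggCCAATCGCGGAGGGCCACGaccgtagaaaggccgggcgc
HYOU1: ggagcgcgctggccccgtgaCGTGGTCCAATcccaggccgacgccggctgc
SDF2L1: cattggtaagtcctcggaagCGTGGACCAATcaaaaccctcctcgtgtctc
HERPUD1: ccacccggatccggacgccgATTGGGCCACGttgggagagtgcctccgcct

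The windows lie upstream of the start site at chr9:125241371-125241429 on the minus strand for HSPA5, chr12:103930196-103930254 on the plus strand for HSP90B1 and chr19:12938364-12938422 on the plus strand for CALR. CRELD2 lies at chr22:49918534-49918592 (plus), XBP1 at chr22:28800583-28800641 (minus), HYOU1 at chr11:119057360-119057410 (minus), SDF2L1 at chr22:21642094-21642144 (plus) and HERPUD1 at chr16:56932005-56932055 (plus). Of 35116 RefSeq promoters of 250 bases before to 50 after a start, 27 (0.0769%) held ERSE, 19 (0.0541%) ERSE-II and 256 (0.729%) the UPRE core. Per gene, of 27305 genes, these shares were 0.0916%, 0.0696% and 0.927%. Among the 29 members with a promoter entry, ERSE was found in 7 (CALR, CANX, CRELD2, HSP90B1, HSPA5, PDIA6 and XBP1) and ERSE-II in 3 (HERPUD1, HYOU1 and SDF2L1). The UPRE core was found in HYOU1, where it overlaps the ERSE-II match shown, and in VCP. PDIA3 and DERL1 had no entry. A match describes letters in the window and is not a measured binding site. The members were listed as genes of the pathways that act through these elements, so their share with a match is not an independent result.

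Library totals ran from 5331203 to 9822088 reads. Levels are given as CPM, the library-size-normalised counts that edgeR computes after its scaling of library sizes (TMM), and since each gene is counted on 1 target whose length is not given, levels are compared between libraries and not between genes. Log2 fold changes are given ± the standard error from the edgeR fit of all 16 libraries, in groups of 2. That error uses a spread estimated over all groups, so it is not the replicate spread of the groups compared. Adjusted p-values come from the quasi-likelihood test of edgeR, adjusted by Benjamini-Hochberg over 12704 tested genes. A gene is called changed, or said to rise or fall, at an adjusted p below 0.05. Per-gene values trended with transcript length, with a Spearman correlation over genes of -0.43 to -0.46 in all IFNw libraries and in the optimized H11 libraries. It was 0.40 to 0.43 in the wild-type H11 and IFNL3 libraries and 0.05 to 0.17 in the others. The second replicate of untreated optimized cells was the shallowest library and stood apart: 11 of the 31 members lay there below the other 3 untreated libraries and more than 1.5-fold below their mean, including CALR, XBP1, SEC61B and MBTPS1. Another 11 members lay above those 3 libraries, among them HSPA5 (342 CPM against 255 to 275) and SDF2L1 (25.2 CPM against 17.6 to 18.7). Calls that end without this second replicate are named beside their values. Of the embryonic kidney markers, LHX1 read 5.86 to 21.6 CPM and PAX2 0.919 to 6.28 CPM, and these 2 moved with the groups: both were called higher with H11 and IFNL3 in wild-type cells (median log2 changes 0.91 and 1.29), both lower in optimized than in wild-type cells after H11 and IFNL3 (-1.56 and -1.33), and 1 of the 2 lower with IFNw in both receptor types and with H11 in optimized cells. Meanwhile the neurofilament genes NEFM and NEFL, also reported in this line, stayed at or below 0.869 CPM. The defining markers of blood, hepatocytes and plasma cells were at most 0.536 CPM, and of 3 fibroblast markers COL1A2 was 0 throughout while COL1A1 read 7.93 to 20.6 CPM and was called lower with IFNw in wild-type cells (-1.15) and with IFNw and H11 in optimized cells (-0.80 and -0.87). The part of these shifts in the members' results was not tested. In whole-culture RNA, fewer cells making a message and less message per cell cannot be told apart.

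Interferon-treated cells differed from untreated cells in many members, and with TMM scaling more were higher than lower in 5 of the 6 comparisons, a balance that depended on the scaling. After IFNw in wild-type cells, 10 members rose and 3 fell (13 of 31, against 31.4% of all tested genes called). In optimized cells IFNw raised 15 and lowered 2, against 33.4%, and H11 raised 14 and lowered 3, against 32.4%. Of all genes, 16.6% to 17.5% rose and 14.8% to 15.9% fell in these 3 comparisons. After IFNL3 in optimized cells 10 members rose and 1 fell, against a background of 13.3%, with 7.26% higher and 6.05% lower. With either IFNL3 library left out fewer members were called, and fewer of all genes. When only the groups compared entered the fit 1 member was called, against 1.87% of all genes. In the wild-type type III groups H11 raised 4 and lowered 5 members, against 38.8%, and IFNL3 raised 7 and lowered 4, against 39.7%. For wild-type IFNL3 too, fewer members and fewer of all genes were called with either IFNL3 library left out. Of all genes 18.2% rose and 20.6% fell with H11, and 18.7% rose and 21.1% fell with IFNL3. The shares of members called, 29% and 35.5%, were no higher than those backgrounds. With a correction for transcript length wild-type H11 gave 6 higher and 4 lower, against 34.3% of all genes called.

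Scaling by library totals alone, an alternative chosen after seeing the data, shifted these balances. It gave 6 higher and 9 lower members for wild-type IFNw, 8 and 7 for optimized IFNw and 8 and 5 for optimized H11, where it moved the medians of all genes to -0.40, -0.43 and -0.40. For wild-type H11 and IFNL3 it gave 12 higher and 3 lower and 12 higher and 4 lower, with the medians of all genes at 0.25 and 0.27, and for optimized IFNL3 8 and 1, with that median at -0.07. So with this scaling more members were lower than higher for wild-type IFNw, and more were higher than lower for wild-type H11. In both, calls were lost and others added, and no original call turned direction. The calls that this scaling ended were those of DERL2, DNAJB9, HYOU1 and SEC61B for wild-type IFNw, PDIA4 and SDF2L1 for wild-type H11, and HSP90B1 and PDIA4 for optimized IFNL3. In optimized cells it ended those of DNAJB9, HYOU1, P4HB, PDIA6 and SEC61A1 for both IFNw and H11, of CALR and PDIA3 for IFNw and of DNAJB11 for H11. A fit of only the groups compared ended those of DNAJB9, HYOU1, P4HB, PDIA6, SEC61A1 and SEL1L for optimized IFNw and H11. That fit also ended those of PDIA3 for IFNw, of CALR and EDEM1 for H11, and every higher call for optimized IFNL3.

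With TMM scaling the median log2 changes of the members were 0.14, 0.39 and 0.42 for wild-type IFNw, optimized IFNw and optimized H11, where the medians of all genes were -0.05, -0.04 and -0.03. They were 0.08 and 0.05 for wild-type H11 and IFNL3 and 0.24 for optimized IFNL3, where the medians of all genes were -0.02, -0.01 and -0.01. Comparisons within a receptor type share their untreated libraries, so the 6 sets of counts are not independent of each other. Without the first untreated optimized library more members were called in each of the 3 optimized comparisons, and so were more of all genes. Without the second the share of all genes called was lower in each, and some of the original member calls were lost. Over the 6 comparisons 18 members were called higher at least once and never lower, 5 lower and never higher, 2 in both directions (SDF2L1 and PDIA4) and 6 never. The same tally was not made over all genes, of which 13.3% to 39.7% were called in each comparison. These numbers therefore have no background to be set against.

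**Figure D1:**
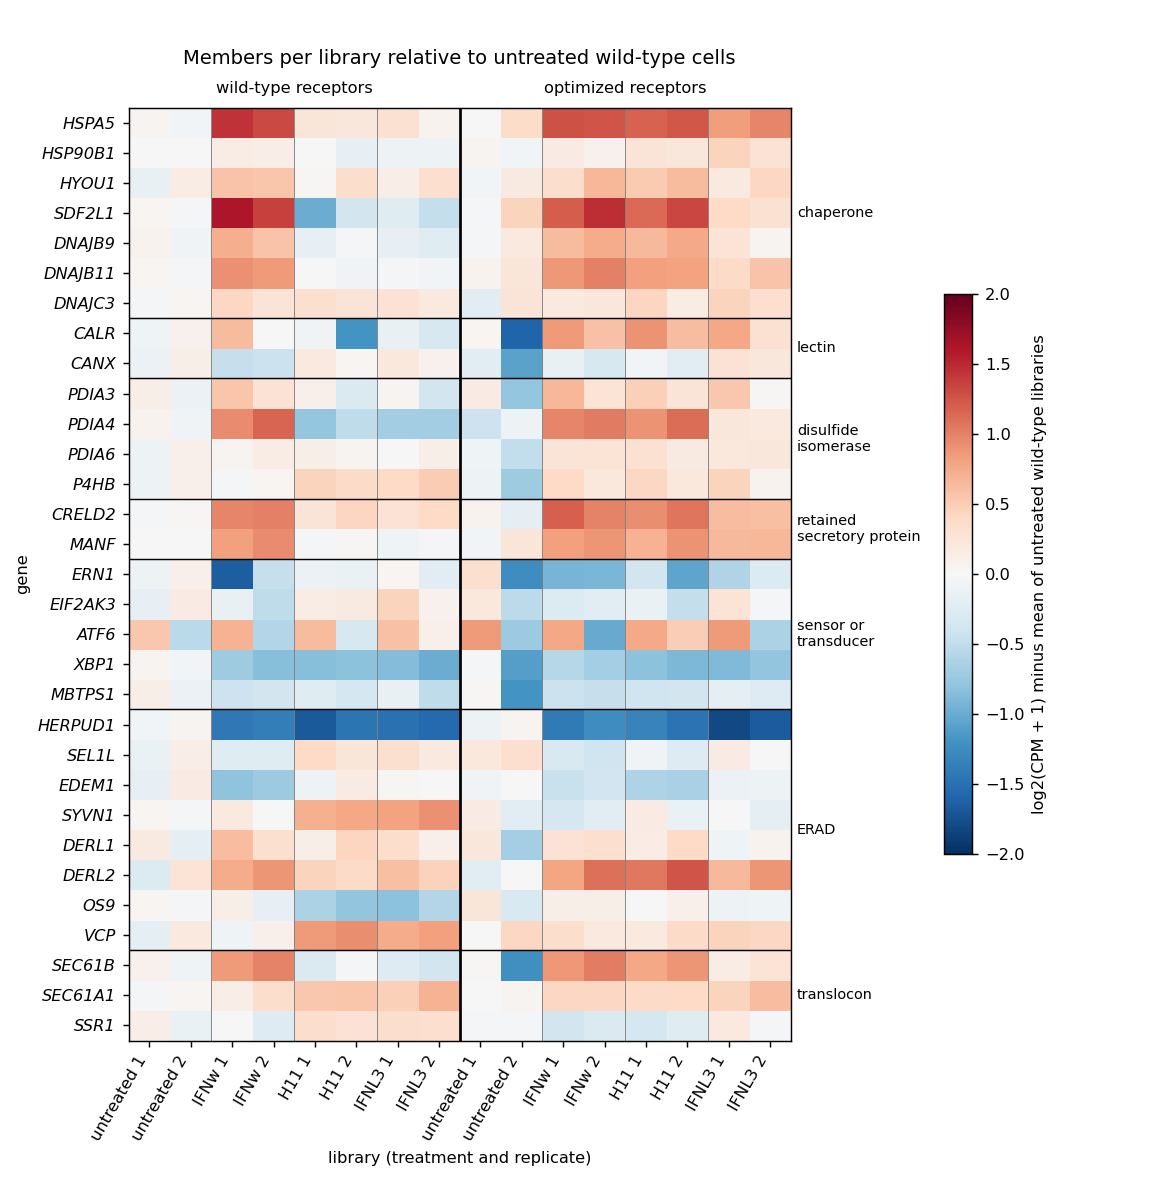
Level of the 31 members (rows, by role) in each of the 16 libraries (columns), as log2(CPM + 1) minus the mean of the untreated wild-type libraries (colour). HERPUD1 is blue in all 12 treated libraries, HSPA5, MANF and CRELD2 are red in the wild-type IFNw and all 6 treated optimized libraries, and the second untreated optimized library is blue for CALR, XBP1, MBTPS1 and SEC61B.

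HSPA5 encodes BiP, the main ER chaperone and the protein that holds the stress sensors inactive. Its level was 275 and 255 CPM in untreated wild-type cells, 726 and 665 after IFNw, 313 and 311 after H11, and 327 and 279 after IFNL3. In optimized cells it was 268 and 342 CPM untreated, 640.2 and 633 after IFNw, 602 and 629 after H11, and 475 and 522 after IFNL3. The wild-type type III libraries sat slightly above their untreated libraries, the optimized type III libraries lay well above theirs, and the IFNw libraries were the highest of each receptor type. HSPA5 rose by a log2 change of 1.39 ± 0.13 with IFNw in wild-type cells (2.62-fold, edgeR adjusted p = 3.9e-07) and by 1.06 ± 0.13 in optimized cells (2.09-fold, edgeR adjusted p = 7.5e-06). In optimized cells it also rose with H11, by 1.02 ± 0.13 (edgeR adjusted p = 1.3e-05), and with IFNL3, by 0.71 ± 0.13 (edgeR adjusted p = 0.0013). The IFNL3 call was lost when only the groups compared entered the fit. In wild-type cells the H11 and IFNL3 values were 0.23 ± 0.13 and 0.19 ± 0.13 and were not called (edgeR adjusted p = 0.16 and 0.25), but with library totals alone they were 0.50 and 0.47 and called.

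SDF2L1 is a small ER protein that works with BiP and its J-domain partner DNAJB11. It read 18.7 and 17.6 CPM in untreated wild-type cells, 57.6 and 48.3 after IFNw, 8.60 and 13.8 after H11, and 15.1 and 12.8 after IFNL3. In optimized cells the values were 17.6 and 25.2 CPM untreated, 43.1 and 52.2 after IFNw, 40.9 and 47.2 after H11, and 24.1 and 22.5 after IFNL3. The IFNw libraries and the optimized H11 libraries lay above every untreated library, the wild-type type III libraries lay below all of them, and the optimized IFNL3 libraries lay between the 2 untreated ones. SDF2L1 rose with IFNw, by 1.54 ± 0.21 in wild-type cells (2.92-fold, edgeR adjusted p = 2.7e-05) and by 1.17 ± 0.21 in optimized cells (edgeR adjusted p = 0.00038). H11 raised it by 1.06 ± 0.21 in optimized cells (edgeR adjusted p = 0.00098; 0.50 and not called with a correction for transcript length). In wild-type cells H11 lowered it by a log2 change of -0.69 ± 0.22 (edgeR adjusted p = 0.019). That call was lost without either untreated library or without the first H11 library, when the values were -0.65, -0.73 and -0.39. The same call was also lost with a correction for transcript length and with library totals alone.

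The other chaperones followed HSPA5 in part. DNAJB11 (ERdj3), a J-domain protein that feeds unfolded chains to BiP, rose by 0.89 ± 0.12 with IFNw in wild-type cells, by 0.80 ± 0.12 with IFNw in optimized cells and by 0.67 ± 0.12 with H11 in optimized cells. Its libraries read 85.6 to 106 CPM in the untreated and wild-type type III groups and 157 to 182 CPM in the groups where it rose, with no overlap; the optimized IFNL3 libraries, at 117 and 133 CPM, lay between. DNAJB9 (ERdj4), which binds misfolded chains and IRE1, read 16.3 and 14.6 CPM in untreated wild-type cells, 26.2 and 23.2 after IFNw, 13.6 and 15.2 after H11 and 13.7 and 12.9 after IFNL3. In optimized cells DNAJB9 read 15.2 and 17.7 CPM untreated, 24.4 and 26.4 after IFNw, 24.6 and 26.9 after H11 and 18.7 and 16.1 after IFNL3. All 6 libraries of the groups where it rose lay above the other 10. The rises of DNAJB9 were 0.68 ± 0.17, 0.64 ± 0.17 and 0.66 ± 0.17 for wild-type IFNw, optimized IFNw and optimized H11. The first was not called without the second untreated wild-type library (0.60), and the second not without the first untreated optimized library (0.52). Both optimized calls of DNAJB9 were also lost when only the groups compared entered the fit. HYOU1 (GRP170), the nucleotide exchange factor of BiP, rose by 0.56 ± 0.16, 0.45 ± 0.16 and 0.52 ± 0.16 in the same 3 comparisons. Each HYOU1 call ended when 1 library was left out: 0.42 without the first untreated wild-type library, 0.34 and 0.40 without the first untreated optimized library, 0.33 without the second IFNw library and 0.50 without the second H11 library of optimized cells.

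HSP90B1 (GRP94), the ER member of the HSP90 family, moved far less than HSPA5 although both promoters carry ERSE. It read 885 and 883 CPM in untreated wild-type cells, 979 and 966 after IFNw, 881 and 788 after H11, and 821 and 821 after IFNL3. In optimized cells it read 923 and 849 CPM untreated, 995 and 936 after IFNw, 1058 and 1029 after H11, and 1209 and 1077 after IFNL3. Only the comparison of optimized cells with and without IFNL3 was called, at 0.37 ± 0.11 (edgeR adjusted p = 0.031). The call was lost without the second untreated library (0.31) and without either IFNL3 library (0.29 and 0.45). DNAJC3 (p58IPK), a J-domain co-chaperone of BiP, was called in none of the 6 comparisons and ranged from 18.2 to 29.6 CPM over all 16 libraries. It was called after H11 and after IFNL3 in optimized cells when the second untreated optimized library was left out (0.55 and 0.64).

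**Figure D2:**
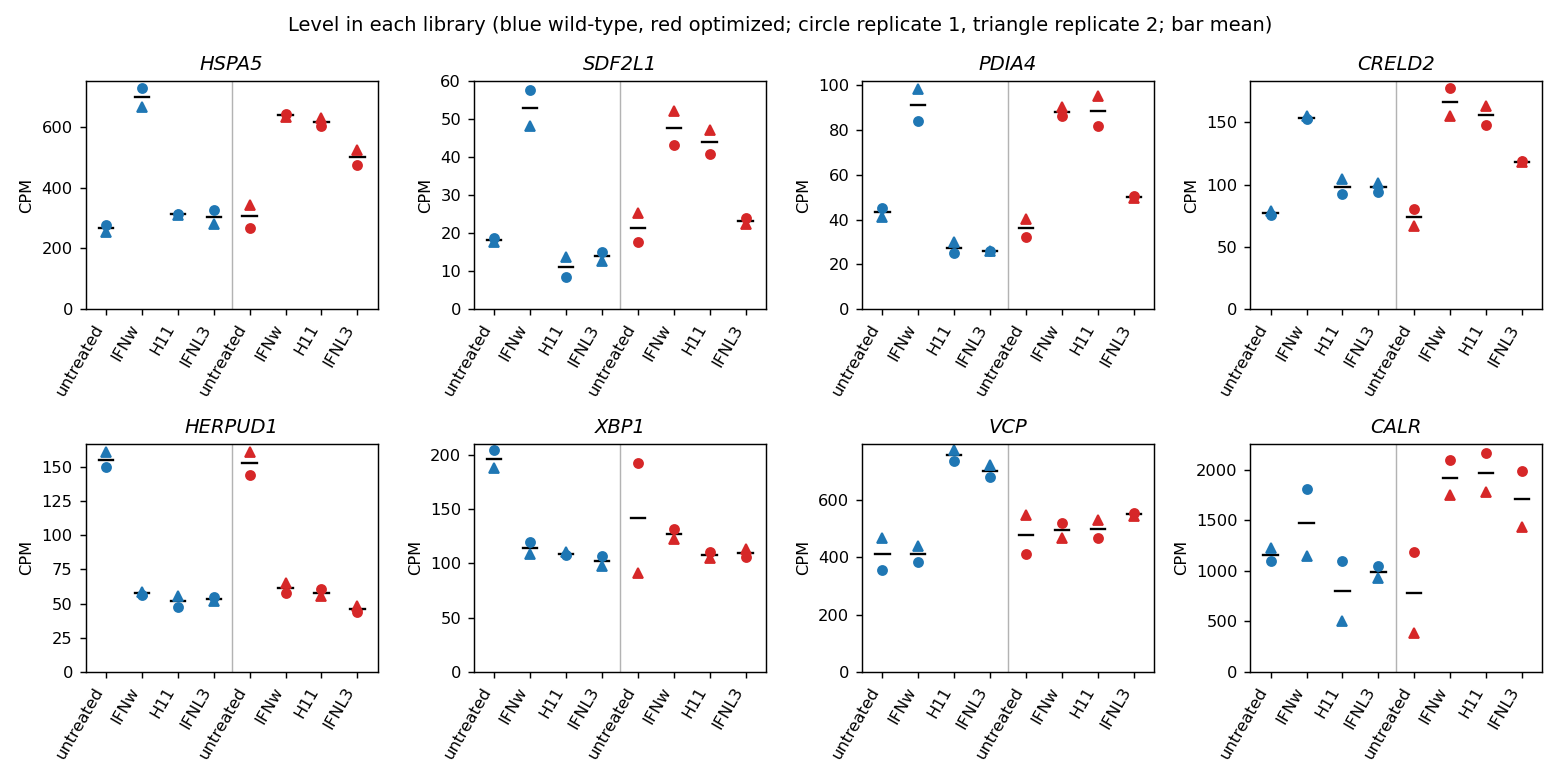
Level in CPM (vertical axis, from 0) of 8 members by group (horizontal axis; blue wild-type, red optimized receptors); each symbol is 1 library (circle replicate 1, triangle replicate 2) and the bar is the mean of the 2. The 4 IFNw libraries and the 2 optimized H11 libraries hold the highest HSPA5 and SDF2L1 levels, and all 12 treated libraries hold HERPUD1 levels below the 4 untreated ones.

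Among the disulfide isomerases PDIA4 (ERp72) had the most uneven response. PDIA4 read 45.3 and 41.2 CPM in untreated wild-type cells, 84.0 and 98.1 after IFNw, 24.9 and 29.9 after H11, and 26.2 and 26.2 after IFNL3. In optimized cells it read 32.3 and 40.3 CPM untreated, 86.1 and 90.0 after IFNw, 81.5 and 95.1 after H11, and 50.6 and 49.4 after IFNL3. Wild-type type III libraries were the lowest of the 16, and optimized H11 libraries were at the level of the IFNw libraries. PDIA4 rose by 1.07 ± 0.15 with IFNw in wild-type cells (edgeR adjusted p = 2.7e-05) and by 1.29 ± 0.15 with IFNw and 1.29 ± 0.15 with H11 in optimized cells. It fell in wild-type cells by 0.66 ± 0.15 with H11 (1.58-fold lower, edgeR adjusted p = 0.0023; -0.39 and not called with library totals alone) and by 0.72 ± 0.15 with IFNL3 (1.65-fold lower, edgeR adjusted p = 0.0011). The rise with IFNL3 in optimized cells, 0.47 ± 0.15 (edgeR adjusted p = 0.045), was lost without the first untreated library (0.31) and without either IFNL3 library (0.47 and 0.49).

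PDIA6 and P4HB, 2 further disulfide isomerases, rose with each ligand in optimized cells. PDIA6 changed by 0.53 ± 0.13, 0.51 ± 0.13 and 0.49 ± 0.13 with IFNw, H11 and IFNL3 and P4HB by 0.68 ± 0.17, 0.69 ± 0.17 and 0.64 ± 0.17. P4HB was also called after IFNL3 in wild-type cells (0.45 ± 0.17), and leaving out any 1 of the 4 libraries ended that call (0.35 to 0.56). In optimized cells the second untreated library held the lowest P4HB level, 127 CPM against 196 CPM in the first. Without it the P4HB changes were 0.41, 0.41 and 0.37 and not called, and the PDIA6 changes were 0.34, 0.32 and 0.30, the last not called. The optimized IFNL3 calls were also lost without an IFNL3 library, for PDIA6 either one (0.51 and 0.48) and for P4HB the first (0.44). PDIA3 (ERp57), which acts with calreticulin and calnexin on glycoproteins, read 439.8 and 376 CPM in untreated wild-type cells, 599.9 and 499 after IFNw, 437 and 334 after H11 and 424 and 315 after IFNL3. Its optimized libraries read 457 and 238 CPM untreated, 644 and 491 after IFNw, 567 and 487 after H11 and 589 and 415 after IFNL3. The first replicate was the higher in all 8 groups. PDIA3 was called after IFNw in optimized cells (0.70 ± 0.25, edgeR adjusted p = 0.037). That call was lost without the second untreated optimized library (0.31) and without the first IFNw library (0.54).

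The lectin chaperones lost calls when single libraries were left out. CALR (calreticulin), the soluble lectin chaperone, read 1095 and 1225 CPM in untreated wild-type cells, 1805 and 1149 after IFNw, 1099.5 and 508 after H11 and 1050.3 and 931 after IFNL3. In optimized cells it read 1184 and 382 CPM untreated, 2091 and 1745 after IFNw, 2167 and 1776 after H11, and 1984 and 1437 after IFNL3. Every treated optimized library lay above every untreated one, but the 2 untreated optimized libraries lay far apart, as did the 2 wild-type H11 libraries. CALR rose in optimized cells by 1.29 ± 0.38 with IFNw (edgeR adjusted p = 0.015) and by 1.33 ± 0.38 with H11 (edgeR adjusted p = 0.013), and its change with IFNL3 was 1.13 ± 0.38 (edgeR adjusted p = 0.06). Without the second untreated library the first 2 values were 0.70 and 0.74, with edgeR adjusted p = 0.12 and 0.098, and without the first treated library they were 1.20 and 1.22, also not called. CANX (calnexin), the membrane-bound lectin chaperone, read 275 and 323 CPM in untreated wild-type cells, 215 and 221 after IFNw, 342 and 308 after H11 and 346 and 319 after IFNL3. Its optimized libraries read 255 and 142 CPM untreated, 270.4 and 239 after IFNw, 286 and 256 after H11 and 365 and 351 after IFNL3. The optimized IFNL3 libraries were the highest and the second untreated optimized library the lowest of the 16. CANX rose with IFNL3 in optimized cells by 0.84 ± 0.19 (edgeR adjusted p = 0.0066). The CANX value was 0.49 without the second untreated library and 0.82, no longer called, without the first IFNL3 library.

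CRELD2 and MANF are small secretory proteins held in the ER and known as ER stress targets. CRELD2 was the member called higher in all 6 ligand comparisons. It read 75.4 and 78.7 CPM in untreated wild-type cells, 152 and 155 after IFNw, 92.7 and 104 after H11, and 94.5 and 101 after IFNL3. The optimized libraries read 80.8 and 67.0 CPM untreated, 178 and 155 after IFNw, 148 and 163 after H11, and 119 and 118 after IFNL3. No treated library overlapped the untreated libraries of its receptor type. CRELD2 rose by 1.00 ± 0.13 with IFNw in wild-type cells (edgeR adjusted p = 1.5e-05), and by 1.16 ± 0.13, 1.07 ± 0.13 and 0.68 ± 0.13 with IFNw, H11 and IFNL3 in optimized cells. The wild-type H11 and IFNL3 rises were 0.35 ± 0.13 each (edgeR adjusted p = 0.035 and 0.039), and these 2 calls were lost when 1 library was left out, the H11 call in 3 of 4 cases (0.27 to 0.39) and the IFNL3 call in all 4 (0.29 to 0.40).

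MANF read 146 and 147 CPM in untreated wild-type cells, 259.6 and 282 after IFNw, 144 and 149 after H11, and 138 and 143 after IFNL3. Optimized cells gave 141 and 173 CPM untreated, 259 and 270.2 after IFNw, 237 and 274 after H11, and 229.8 and 231 after IFNL3. The wild-type type III libraries were at the untreated level, and all 8 other treated libraries were above every untreated one. MANF rose by 0.89 ± 0.12 with IFNw in wild-type cells (edgeR adjusted p = 2.7e-05) and by 0.76 ± 0.12, 0.70 ± 0.12 and 0.56 ± 0.12 with the 3 ligands in optimized cells. With a correction for transcript length the optimized IFNw and H11 values of MANF were 0.25 and 0.23 and were not called.

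Of the 5 sensors and transducers, XBP1 was the one called in a ligand comparison, and it was lower. XBP1 read 204 and 188 CPM in untreated wild-type cells, 119.5 and 109 after IFNw, 108 and 109.9 after H11, and 107 and 97.9 after IFNL3. The levels in optimized cells were 193 and 90.8 CPM untreated, 132 and 122 after IFNw, 110.4 and 105 after H11, and 106 and 113 after IFNL3. Apart from that second untreated optimized library, which held the lowest XBP1 level of all, the untreated libraries lay above every treated one. XBP1 fell in wild-type cells by 0.78 ± 0.21 with IFNw (edgeR adjusted p = 0.01), by 0.85 ± 0.21 with H11 (edgeR adjusted p = 0.0047) and by 0.94 ± 0.21 with IFNL3 (edgeR adjusted p = 0.0024). The IFNw call was lost without the first untreated library (-0.72) or either IFNw library (-0.80 and -0.68). In optimized cells the changes, -0.17 ± 0.21, -0.40 ± 0.22 and -0.38 ± 0.21, were not called. Without the second untreated optimized library they were -0.60, -0.84 and -0.81, all called, with edgeR adjusted p = 0.0011, 5.3e-05 and 0.00021. Without the first one instead, the IFNw value of XBP1 was 0.48 and called in the opposite direction.

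The other sensors gave little resolution. ATF6 was called in none of the 6 comparisons and was higher in the first replicate of all 8 groups, by 1.21 to 3.66 times. ERN1 (IRE1) was covered by 3 to 45 reads a library and was called lower with IFNw only with 1 library left out (-2.98 without the second wild-type IFNw library, -1.75 without the second untreated optimized one), and EIF2AK3 (PERK) ranged from 7.18 to 15.0 CPM. MBTPS1, the protease that cuts ATF6, read 78.2 and 67.0 CPM in untreated wild-type cells and 50.8 to 65.1 CPM in the treated ones. In untreated optimized cells it read 73.9 and 30.98 CPM, and its IFNw value was 0.78 without the first of these libraries and -0.48 without the second, both called.

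HERPUD1, an ER membrane protein that organises the degradation complex, fell in all 6 ligand comparisons. Of the 7 chaperones, 5 rose with IFNw in wild-type cells, 5 each with IFNw and H11 in optimized cells and 2 with IFNL3 there. Of all genes 16.6%, 17.5%, 17.2% and 7.26% rose in these comparisons. The 2 optimized IFNL3 calls, HSPA5 and HSP90B1, were not kept under every alternative. With H11 and IFNL3 in wild-type cells no chaperone rose with TMM scaling, where 18.2% and 18.7% of all genes did. HSPA5 was called higher there with library totals alone. HERPUD1 is known as a target of the ATF4 branch as well as of ATF6 and XBP1. It read 149.7 and 161 CPM in untreated wild-type cells, 56.6 and 58.8 after IFNw, 47.6 and 55.5 after H11, and 54.5 and 52.1 after IFNL3. Among optimized cells the values were 144 and 161 CPM untreated, 57.7 and 64.8 after IFNw, 60.9 and 55.3 after H11, and 43.6 and 48.3 after IFNL3. All 12 treated libraries lay between 43.6 and 64.8 CPM, far below the 4 untreated libraries. The log2 change was -1.43 ± 0.13, -1.59 ± 0.13 and -1.54 ± 0.13 with IFNw, H11 and IFNL3 in wild-type cells, which is 2.69-fold to 3.01-fold lower. For the optimized libraries it was -1.31 ± 0.13, -1.39 ± 0.13 and -1.73 ± 0.13, 2.49-fold to 3.32-fold lower. The largest of these 6 edgeR adjusted p-values was 8e-07. HERPUD1 was the single member called in the same direction in all 6 comparisons under each of the 11 alternatives computed for each of them.

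The remaining ERAD genes divided by receptor and ligand. VCP (p97), the ATPase that pulls chains out of the ER membrane, read 357 and 466 CPM in untreated wild-type cells, 383 and 438 after IFNw, 736 and 775 after H11, and 681 and 724 after IFNL3. In optimized cells VCP read 412 and 547 CPM untreated and 467 to 556 CPM over the 6 treated libraries, inside or just above the untreated range. VCP rose in wild-type cells by 0.88 ± 0.15 with H11 (edgeR adjusted p = 0.00019) and by 0.77 ± 0.15 with IFNL3 (edgeR adjusted p = 0.00057).

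SYVN1 (HRD1), the ERAD ubiquitin ligase, showed the same layout: 15.1 and 14.4 CPM in untreated wild-type cells, 16.98 and 14.7 after IFNw, 24.8 and 25.7 after H11, and 26.5 and 28.5 after IFNL3. In optimized cells SYVN1 read 16.6 and 12.4 CPM untreated and 11.5 to 16.5 CPM over the 6 treated libraries. The 4 wild-type type III libraries were above all 12 others. SYVN1 rose by 0.78 ± 0.18 with H11 (edgeR adjusted p = 0.0021) and by 0.90 ± 0.18 with IFNL3 (edgeR adjusted p = 0.00065) in wild-type cells. OS9, a lectin that delivers misfolded glycoproteins to the ligase, fell in the same 2 groups, by 0.74 ± 0.17 and 0.73 ± 0.17. OS9 read 19.1 to 22.5 CPM there and 27.8 to 40.9 CPM in the 12 other libraries, with no overlap.

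DERL2, a derlin of the degradation channel, was called higher in 5 of the 6 comparisons. It read 7.16 and 10.96 CPM in untreated wild-type cells, 15.6 and 17.2 after IFNw, 12.4 and 11.8 after H11 and 14.0 and 12.6 after IFNL3. Its optimized libraries read 7.43 and 8.93 CPM untreated, 16.1 and 20.2 after IFNw, 19.5 and 22.6 after H11 and 14.6 and 17.2 after IFNL3. All 12 treated libraries lay above all 4 untreated ones. DERL2 rose by 0.85 ± 0.22 with IFNw in wild-type cells and by 1.16 ± 0.22, 1.38 ± 0.22 and 0.97 ± 0.22 with IFNw, H11 and IFNL3 in optimized cells. Its wild-type IFNL3 value, 0.55 ± 0.21 (edgeR adjusted p = 0.049), was lost in 8 of the 11 alternatives, and the wild-type IFNw call without the first untreated library (0.58). The optimized IFNL3 call of DERL2 was lost without the second IFNL3 library (0.85). EDEM1, a mannosidase-like protein that marks glycoproteins for degradation, read 34.6 and 43.5 CPM in untreated wild-type cells and 21.8 and 23.1 after IFNw. It fell there by 0.80 ± 0.15 (edgeR adjusted p = 0.00069), and in optimized cells with H11 by 0.61 ± 0.15. SEL1L, the partner of SYVN1, fell in optimized cells by 0.64 ± 0.15 with IFNw and by 0.44 ± 0.15 with H11. With a correction for transcript length the optimized values of EDEM1 with H11 (-0.38) and of SEL1L (-0.32 and -0.14) were not called, and the H11 call of SEL1L was also lost without the second untreated library (-0.38) or either H11 library (-0.50 and -0.32). DERL1 was called in none of the 6 comparisons.

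The translocon, the channel through which new chains enter the ER, is represented by 3 members. SEC61B, its beta subunit, read 269 and 241 CPM in untreated wild-type cells, 461 and 507 after IFNw, 208 and 246 after H11, and 213 and 197 after IFNL3. The optimized libraries read 259 and 108 CPM untreated, 465 and 515 after IFNw, 434 and 471 after H11, and 283 and 308 after IFNL3. The IFNw and optimized H11 libraries lay far above the rest. SEC61B rose by 0.93 ± 0.24 with IFNw in wild-type cells, and in optimized cells by 1.41 ± 0.25 with IFNw and 1.29 ± 0.25 with H11. The wild-type call was lost without the second untreated library (0.85, edgeR adjusted p = 0.068) and with the correction for transcript length (0.30, edgeR adjusted p = 0.39). Without the low second untreated library the optimized values of SEC61B were 0.92 and 0.80, still called. SEC61A1, the channel-forming subunit, read 168 and 177 CPM in untreated wild-type cells, 189 and 221 after IFNw, 251 and 255 after H11 and 240.0 and 279.8 after IFNL3. Its optimized libraries read 171 and 179 CPM untreated, 229.9 and 229.6 after IFNw, 225 and 228 after H11 and 236 and 266 after IFNL3. The treated libraries were all above the 4 untreated ones. SEC61A1 rose by 0.55 ± 0.12 and 0.59 ± 0.12 with H11 and IFNL3 in wild-type cells and by 0.39 ± 0.12, 0.37 ± 0.12 and 0.52 ± 0.12 with the 3 ligands in optimized cells, where the IFNw and H11 values became -0.01 and -0.01 when scaled by library totals alone. Its optimized H11 call was lost without the first untreated library (0.34) or either H11 library (0.42 and 0.40), and its optimized IFNL3 call without the second IFNL3 library (0.43). SSR1, a subunit of the translocon-associated protein complex, was called after IFNL3 in wild-type cells (0.35 ± 0.13, edgeR adjusted p = 0.047), a call lost without the second untreated library (0.22) or either IFNL3 library (0.34 and 0.35).

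Receptor type was compared within each treatment. In untreated cells 0 of the 31 members differed between optimized and wild-type cells, where 0% of all genes were called. By unadjusted p below 0.05 there were 3 members (CANX, P4HB and XBP1, all lower in optimized cells), and DESeq2 also called 0. The 95% interval of the difference lay within 2-fold in either direction for 28 members, the exceptions being CALR, ERN1 and ATF6. Without the first untreated optimized library CALR was at -1.60, SEC61B at -1.24, MBTPS1 at -1.23 and XBP1 at -1.11. Members were then called, all of them lower, as were other genes, so the count of 0 depended on that library. The untreated optimized level in that fit rests on the second library alone, which stood apart. After IFNw 0 members differed between the receptor types, again with 0% of all genes called, 1 member (EDEM1) by unadjusted p and 0 by DESeq2. For IFNw the interval also lay within 2-fold for 28 members.

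After H11 the receptor types differed in 13 members that were higher and 5 that were lower in optimized cells, against 51.7% of all genes called, 25.6% higher and 26.1% lower. The higher members were led by SDF2L1 (1.97 ± 0.22, 3.92-fold, edgeR adjusted p = 9.3e-07), PDIA4 (1.68 ± 0.15, 3.21-fold, edgeR adjusted p = 7.2e-08), CALR (1.29 ± 0.38), SEC61B (0.99 ± 0.24) and HSPA5 (0.98 ± 0.13, 1.98-fold, edgeR adjusted p = 6.2e-06). The lower ones were SYVN1 (-0.75 ± 0.18), EDEM1 (-0.70 ± 0.15), SSR1 (-0.62 ± 0.14), VCP (-0.60 ± 0.15) and SEL1L (-0.50 ± 0.14). The share of members called, 58.1%, was close to the background. Scaling by library totals alone moved the median of all genes in this comparison from -0.05 to -0.68, gave 3 higher and 17 lower members in place of 13 and 5, and turned HSP90B1 (0.32) and HYOU1 (0.39) to -0.31 and -0.24. The calls of HSP90B1, HYOU1, CALR and SEL1L were each lost without 1 library. For CALR these were the second wild-type H11 library (0.84) and the first optimized one (1.16), and for HSP90B1 the same libraries (0.24 and 0.32). For SEL1L they were the first wild-type library (-0.42) and the second optimized one (-0.40), and for HYOU1 the first wild-type library (0.23) and either optimized one (0.46 and 0.35). After IFNL3 there were 7 higher members and 1 lower, against 33.2%, 18.1% higher and 15.1% lower, and with library totals alone 3 higher and 8 lower, with the median of all genes at -0.34. PDIA4 (0.93 ± 0.15), SDF2L1 (0.74 ± 0.21), HSPA5 (0.72 ± 0.13), MANF (0.71 ± 0.12), OS9 (0.63 ± 0.18), DNAJB11 (0.52 ± 0.12) and HSP90B1 (0.48 ± 0.11) were higher in optimized cells, and SYVN1 was lower (-0.98 ± 0.18). The IFNL3 calls of SDF2L1 and OS9 were lost without single libraries (0.63 and 0.68 for SDF2L1, 0.52 to 0.63 for OS9). HERPUD1 was called in neither, at 0.17 ± 0.13 and -0.22 ± 0.13, although the H11 value was -0.46 and called when scaled by library totals alone. XBP1 was also called in neither, at -0.01 ± 0.21 and 0.10 ± 0.21.

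The difference between the receptor types in the response itself was tested as an interaction. For H11 the response of 11 members was higher and that of 5 lower in optimized cells, against 36.9% of all genes called, 19.5% higher and 17.4% lower. PDIA4 differed by 1.95 ± 0.21 (edgeR adjusted p = 2.2e-06) and VCP by -0.82 ± 0.21 (edgeR adjusted p = 0.0051), and these 2 held under all 15 alternatives. The difference for OS9, 0.79 ± 0.25, was lost without the second untreated optimized library (0.55, edgeR adjusted p = 0.057). With library totals alone the H11 counts were 2 higher and 8 lower and the IFNL3 counts 1 and 5, with the medians of all genes at -0.67 and -0.33. With a correction for transcript length they were 5 and 2 for H11 and 1 and 1 for IFNL3, against 27.8% and 13% of all genes. For IFNL3 there were 3 higher and 1 lower, against 18.4%, 11.1% higher and 7.31% lower, with PDIA4 at 1.20 ± 0.21 (edgeR adjusted p = 0.00094) under all 15. For IFNw 0 members differed, against 0%, with 3 by unadjusted p and 0 by DESeq2. When the first untreated optimized library was left out, more members were called for IFNw and for IFNL3, and so were more of all genes. The untreated optimized level then rests on the second library alone.

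**Figure D3:**
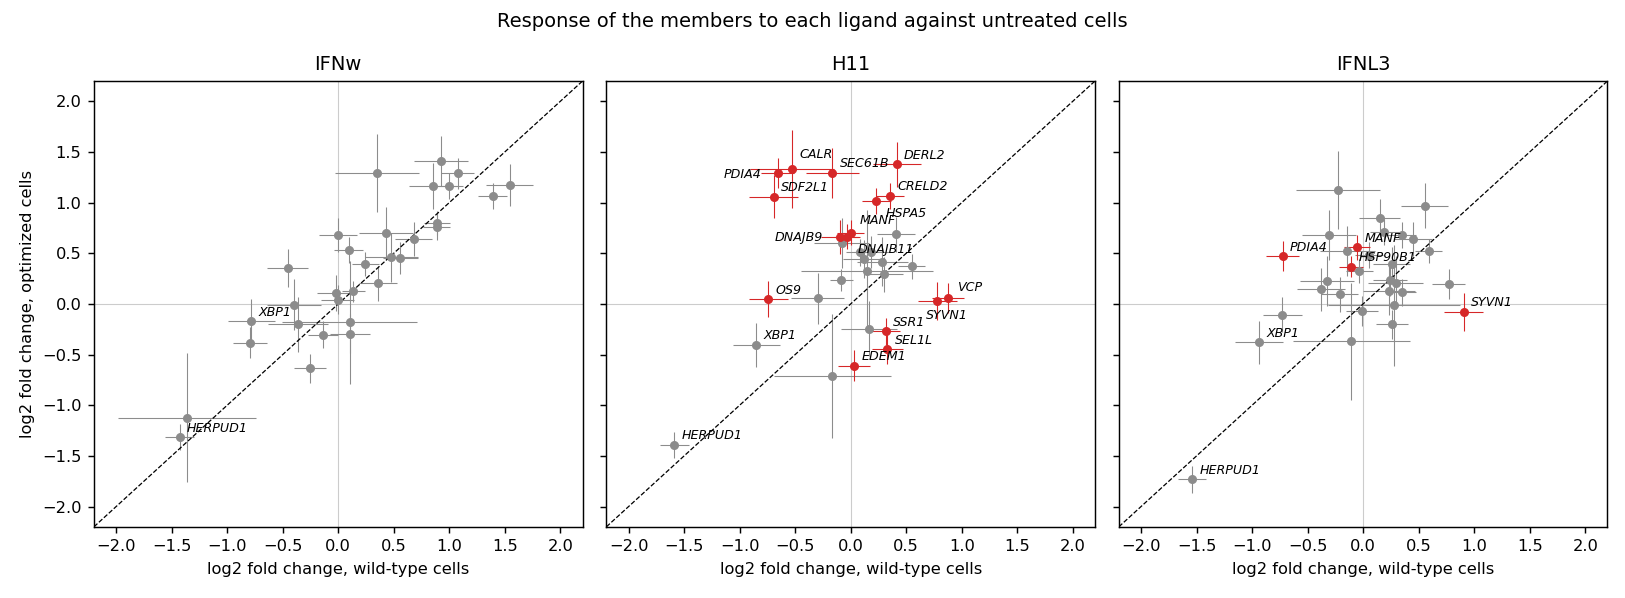
Log2 fold change against untreated cells in wild-type (horizontal axis) and optimized cells (vertical axis) for IFNw, H11 and IFNL3; each point is a member, bars are standard errors, the dashed line marks equal response, and red marks members whose response differed between the receptor types by edgeR. With H11, PDIA4, SDF2L1, CALR and SEC61B lie well above the line and VCP, SYVN1, SEL1L and EDEM1 below it, while with IFNw no member is red.

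The 2 type III ligands were set side by side within each receptor type. In wild-type cells H11 and IFNL3, which differ in receptor affinity, gave 0 members called, against 0% of all genes, with 0 members also by unadjusted p and by DESeq2. The differences ran from -0.31 for SDF2L1 to 0.15 for SEC61B, and the 95% interval lay within 2-fold for 28 of 31 members, with CALR, ERN1 and ATF6 outside. In optimized cells 4 members were higher and 1 lower after H11 than after IFNL3, against 17.6%, 10.7% higher and 6.86% lower. These were SDF2L1 (0.91 ± 0.21), PDIA4 (0.82 ± 0.15), DNAJB9 (0.56 ± 0.16) and CRELD2 (0.39 ± 0.13) higher, and EDEM1 lower (-0.54 ± 0.15). PDIA4 kept its call with each library left out, while the other 4 lost it without at least 1 library. Fewer of all genes were also called in each of those fits. With library totals alone 2 were higher and 8 lower, against 30.1% of all genes called. IFNw against IFNL3 gave 9 higher and 9 lower members in wild-type cells, against 53.1%, 25.9% higher and 27.2% lower, with SDF2L1 at 1.92 ± 0.21, PDIA4 at 1.80 ± 0.15, SEC61B at 1.24 ± 0.24 and HSPA5 at 1.20 ± 0.13. Optimized cells gave 7 higher and 2 lower, against 19.1%, 11.5% higher and 7.58% lower, with SDF2L1 at 1.03 ± 0.21 and PDIA4 at 0.82 ± 0.15. For that optimized comparison fewer members, and fewer of all genes, were called with any 1 of the 4 libraries left out. With library totals alone these 2 comparisons gave 6 higher and 15 lower members in wild-type and 2 higher and 10 lower in optimized cells, with the medians of all genes at -0.69 and -0.34. The wild-type one gave 9 higher and 3 lower with the correction for transcript length, against 44% of all genes. The optimized one gave 7 and 0 by DESeq2 (22.5%) and 8 and 0 with DESeq2's size factors in edgeR (19%).

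Transcript length moved with these values. Over the 31 members the Spearman correlation of length with the log2 change was -0.50 for IFNw and 0.38 for H11 in wild-type cells, and -0.66 and -0.57 for IFNw and H11 in optimized cells. For optimized against wild-type cells after H11 it was -0.65. These are descriptions over genes of the same libraries. A fit with a smooth function of length taken out of each library left 11 of the 18 members of that last comparison called, and all-gene calls at 43.6%. HSPA5 (1.09), PDIA4 (1.66), SDF2L1 (1.05), DERL2 (0.95), OS9 (0.72) and SYVN1 (-0.76) were among those called in that fit. CRELD2 (0.06), SEC61B (0.04), SEL1L (0.08), SSR1 (0.04) and EDEM1 (-0.27) were among those no longer called, as was MANF, whose value was then at 0 to 2 decimals. The lengths are of annotated transcripts and need not be those of the counted targets.

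**Figure D4:**
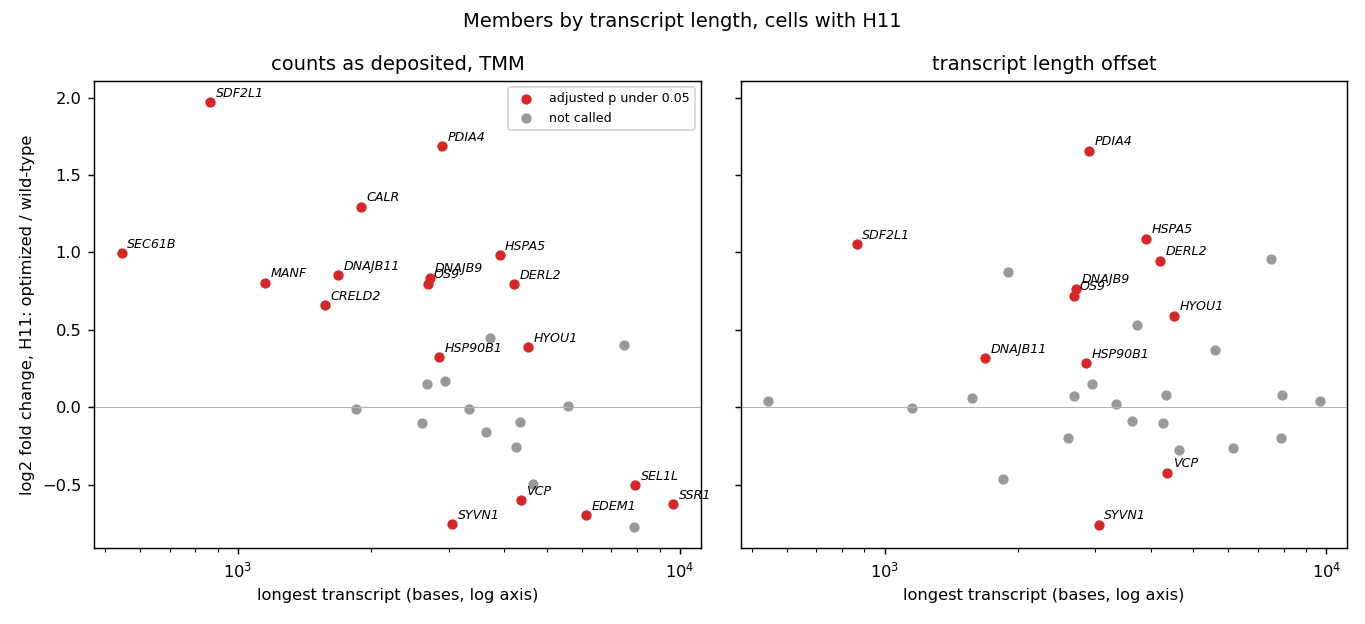
Log2 difference between optimized and wild-type cells after H11 (vertical axis) against annotated transcript length (horizontal axis, log scale) for the 31 members, before and after the length correction. The short transcripts of SEC61B and MANF drop to about 0 after the correction, while PDIA4 lies above 1 and SYVN1 below 0 in both panels and HSPA5 lies at 0.98 before and 1.09 after the correction; red marks members called by edgeR.

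Members with and without a promoter motif were set side by side. Of the 10 members with ERSE or ERSE-II, optimized cells given IFNw had 6 higher and 1 lower, and wild-type cells given IFNw had 4 higher and 2 lower. Of the 19 with neither motif these counts were 8 and 1 in the optimized and 6 and 1 in the wild-type comparison. Median log2 changes were 0.49 with a motif and 0.11 without one for optimized IFNw, and 0.24 and 0.10 for wild-type IFNw. Between the receptor types after H11, 6 members with a motif were higher and 0 lower in optimized cells, against 7 and 5 of those without one, with medians of 0.36 and -0.09. In the H11 difference in response these counts were 4 and 0 against 7 and 5. For wild-type IFNw against IFNL3 they were 3 and 1 against 6 and 8, with medians of 0.28 and -0.18, and for wild-type H11 against untreated cells 1 and 3 against 3 and 2. HSPA5, SDF2L1 and CRELD2, whose windows are shown above, were among the strongest rises, and HERPUD1 and XBP1, whose windows carry the same elements, were the members with a motif that fell with IFNw. Of all genes, 33.4% were called for optimized IFNw, 31.4% for wild-type IFNw and 38.8% for wild-type H11. The all-gene share was 51.7% between the receptor types after H11 (25.6% higher, 26.1% lower) and 36.9% for the H11 difference in response. For wild-type IFNw against IFNL3 it was 53.1%. No test was made of the motif groups.

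Other ER protein genes, 60 by list and 59 tested, moved in both directions. With IFNw 15 rose and 5 fell in wild-type cells and 16 rose and 4 fell in optimized cells, 33.9% called in each, against 31.4% and 33.4% of all genes. By size of change the leading ones in wild-type cells were AUP1 (1.19 ± 0.11), a lipid droplet and ERAD factor, SEC63 (-1.14 ± 0.15), a translocon J-domain protein, and DAD1 (0.98 ± 0.14), a subunit of the oligosaccharyl transferase. With H11 7 rose and 13 fell in wild-type cells (33.9%, against 38.8% of all genes), where DERL3 (-1.96 ± 0.68), ERO1LB (-1.83 ± 0.23), an ER oxidase, and SIL1 (-1.07 ± 0.17), an exchange factor of BiP, led. With H11 in optimized cells 19 rose and 5 fell (40.7%, against 32.4% of all genes, 17.2% higher and 15.2% lower), led by SEC11C (1.23 ± 0.17), a signal peptidase subunit, SEC61G (1.22 ± 0.19) and SEC63 (-1.21 ± 0.15). With IFNL3 7 rose and 15 fell in wild-type cells, and 7 rose and 2 fell in optimized cells (37.3% and 15.3%, against 39.7% and 13.3%).

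For the PERK branch, the third arm of the ER stress response, the messages of 6 listed genes were followed, and none rose with any ligand. The activity of PERK was not measured. In wild-type cells 3 fell with IFNw and 4 each with H11 and IFNL3, and in optimized cells 3, 3 and 4 fell. Of all genes 14.8%, 20.6% and 21.1% fell in these wild-type comparisons and 15.9%, 15.2% and 6.05% in the optimized ones. CHAC1, an ATF4 target that degrades glutathione, read 108 and 102 CPM in untreated wild-type cells and 4.73 and 7.49 after IFNw, a change of -4.10 ± 0.21 (edgeR adjusted p = 1.3e-10). ASNS (asparagine synthetase) and TRIB3 fell with it, by 1.92 ± 0.14 and 1.34 ± 0.13. DDIT3 (CHOP) read at most 3.49 CPM in every library and was not called in any ligand comparison.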

How the data were processed

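RNA from 16 HEK293 libraries in 8 groups of 2 was analysed. Each deposited file holds raw read counts per target, not normalized, per the file headers and values. Per the submitters' processing notes the build was hg19. The sources used here do not give the aligner, the counter, strand use or target positions. An Ion Torrent library kit was used, per the labels' protocols. Of 20812 targets, 10 spike-ins (at most 1 read) were left out. Genes were matched by symbol.

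Counts were fitted with edgeR 4.0.16 (R 4.3.3): TMM scaling, filterByExpr (12704 genes kept), 1 model over all 16 libraries with no term for the replicate number, quasi-likelihood tests of 17 comparisons, Benjamini-Hochberg adjustment over all genes at 0.05. The common biological coefficient of variation was 13.3%. TMM factors ran from 0.795 to 1.28. The procedure was tested on simulated data. Alternatives were DESeq2 1.42.0, edgeR with DESeq2's size factors, no filter on low counts, a replicate block, a transcript length offset (spline, 5 degrees of freedom; GENCODE lengths for 94.4% of tested genes), only the groups compared, each library left out, and, added after seeing the data, library totals without TMM. When 1 library of a group is left out, the other is taken to vary as the remaining groups do.

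Members and gene lists were chosen with earlier results of these data known. Values in every library are given for HSPA5, HSP90B1, SDF2L1, DNAJB9, HERPUD1, XBP1 and, in each role class, the 2 called members with the largest absolute change over the 6 ligand comparisons; up to 3 of the other ER protein genes are named by size. Values of other members in every library, such as VCP and SYVN1, were added after they were seen. Nothing in the labels says whether the replicates were separate cultures, so p-values measure the spread between these libraries. The replicates differed by more than counting noise (chi-square per degree of freedom 6.58 to 26.1).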

Additional observations from a re-analysis of the deposited data

Results flagged for a closer look

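The responses below differed between optimized and wild-type cells by a test of the difference itself (edgeR's quasi-likelihood interaction term, Benjamini-Hochberg adjusted over 12704 genes), given as the log2 response in optimized cells minus that in wild-type cells. For H11 the chaperones HSPA5 (0.78), SDF2L1 (1.75), DNAJB9 (0.75) and DNAJB11 (0.70) and the retained secretory proteins CRELD2 (0.72) and MANF (0.71) responded more in optimized cells. So did CALR (1.86), PDIA4 (1.95), DERL2 (0.96), OS9 (0.79) and SEC61B (1.46). The ERAD genes SEL1L (-0.77), EDEM1 (-0.64), SYVN1 (-0.75) and VCP (-0.82) and the translocon-associated SSR1 (-0.58) responded less. For IFNL3 the differences were 0.47 for HSP90B1, 1.20 for PDIA4, 0.61 for MANF and -0.98 for SYVN1.

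Of the 16 H11 differences 9 were called with each library left out in turn and 2 (PDIA4 and VCP) under all 15 alternatives, and OS9 was not called without the second untreated optimized library (0.55); of the 4 IFNL3 differences 1 (PDIA4) was called under all 15. Transcript length moved with these differences, at a Spearman correlation over the 31 members of -0.69 for H11 and -0.59 for IFNL3. These became -0.22 and -0.22 with the length offset. That fit kept the calls of 7 of the 16 H11 and 2 of the 4 IFNL3 differences, against 27.8% and 13% of all genes called. For H11, MANF (-0.15) and SSR1 (0.03) turned direction in it and were not called. The part of length in the result was not tested beyond that fit. No group had more than 2 libraries, so a search for outlying samples within a group was not possible.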

How the results depend on the processing

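Numbers are of 31 members called. Where leaving out a library moved the count, the share of all tested genes called moved too. A moved count is therefore not by itself particular to the members. Leaving out 1 library at a time gave 10 to 13 for IFNw, 8 to 8 for H11 and 7 to 8 for IFNL3 in wild-type cells, and 15 to 19, 14 to 20 and 6 to 15 in optimized cells. For optimized against wild-type cells it gave 0 to 8 untreated, 0 to 0 with IFNw, 15 to 16 with H11 and 6 to 7 with IFNL3, and for differences in response 0 to 7, 11 to 20 and 2 to 12. Between ligands it gave 0 to 0 and 14 to 16 in wild-type cells (H11 and IFNw against IFNL3) and 1 to 3 and 3 to 5 in optimized cells.

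Fitting only the groups compared gave 10, 9 and 1 for IFNw, H11 and IFNL3 in optimized cells (17.2%, 17% and 1.87% of all genes). It gave 13 for optimized against wild-type IFNL3 (40.2%) and 10 for optimized H11 against IFNL3 (25.4%). The H11 and IFNL3 differences in response gave 10 and 2 (31.3% and 12.4%). The length offset gave 11 and 5 for optimized against wild-type H11 and IFNL3 (43.6% and 26.4% of all genes). It gave 7 and 2 for the H11 and IFNL3 differences in response (27.8% and 13%). For optimized H11 and IFNw against IFNL3 it gave 1 and 1 (7.96% and 8.76%). No low-count filter gave 2 for the untreated comparison (0.265% of all genes). For the IFNw and IFNL3 differences in response it gave 1 and 8 (0.0795% and 13.8%). Library totals without TMM gave 15 (12 higher, 3 lower) for wild-type H11 (44.3% of all genes). They gave 10 (2 higher, 8 lower) for both the H11 difference in response and optimized H11 against IFNL3 (51.1% and 30.1%).

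Replicate numbers were not shown to pair the libraries: same-numbered libraries deviated together at r = 0.085 to 0.212 over 28 group pairs (27 over 0.1), but there are only 2 numbers and no label ties them to a shared batch. With the replicate block the count was 10 (8 higher, 2 lower) for the IFNL3 difference in response, against 24.4% of all genes. It was 9 for optimized H11 against IFNL3, against 23.4%. The block lost no call and added 32.

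Directions turned as follows, the cause not being tested. With library totals HSP90B1 was -0.27 (optimized IFNw), -0.31 (optimized against wild-type H11) and -0.38 (wild-type IFNw against IFNL3). In the last 2 of these, DNAJC3 was -0.62 and -0.52, PDIA6 -0.48 and -0.58 and HERPUD1 -0.46 and -0.51, and in the H11 one HYOU1 was -0.24. SEC61A1 was -0.0068 and -0.0075 for optimized IFNw and H11. With the length offset MANF was 0.37 for wild-type H11, -0.0045 for optimized against wild-type H11 and -0.15 for the difference in response, SEL1L 0.078 and 0.098 (last for wild-type IFNw against IFNL3), and SSR1 0.043, 0.028 and 0.22. Without the first untreated optimized library XBP1 and MBTPS1 were 0.48 and 0.78 for IFNw, where without the second XBP1 was -0.60; for H11 MBTPS1 was 0.84 without the first and -0.42 without the second. Genes with few reads, such as ERN1, and the 2 libraries per group limit what could be called.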
